A study of Ovis aries with 6 samples.

Results

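Skin moves water and salt through channel proteins, and 3 genes for such channels, AQP1, AQP5 and CFTR, were followed in wool-bearing and non-wool-bearing sheep skin. The members were all non-control probes whose deposited RefSeq mRNA identifier belongs to 1 of these genes. They were 3 of the 476 genes that could be named, with 6 of 15008 probes, 2 for each gene. Of these 6 probes, 5 were bright enough to be tested. The skin came from 3 Aohan fine wool sheep, 1 ram and 2 ewes of 12 months with a common father, kept in pens with no treatment named. Full-thickness skin was cut from the body side, which bears wool (3 samples), and from the groin of the animals, which does not (3 samples). Each sample went to 1 single-colour (Cy3) Agilent sheep array. The series was made to find genes linked to the growth phase of the wool cycle.

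Aquaporins are membrane pores that let water follow an osmotic gradient. AQP1 is the water channel of red cells, of capillary endothelium and of several fluid-moving epithelia, and AQP5 sits in the apical membrane of secretory cells such as those of salivary, lacrimal and sweat glands. CFTR is a chloride and bicarbonate channel of epithelia that protein kinase A opens, and in the sweat duct it takes chloride back from the fluid. In sheep, the sweat gland opens into the primary wool follicle, so gland, follicle and the vessels around them lie together in the same piece of skin.

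Scan and site cannot be told apart here, because all groin arrays belong to 1 scan and all body side arrays to a different one. Signals from the body side were weaker. For the processed signal, the background-corrected intensity of the scanner software, the 75th percentile of these arrays lay between 1103 and 2048, against 3677 to 4401 in the groin (log2 difference -1.57, two-sided p = 0.1 by an exact permutation test, which can give no smaller p with 3 arrays a site). A scaled level therefore gives the signal relative to the 75th percentile of its array, in log2, and a difference is body side minus groin on that scale unless stated otherwise. A negative control spot, which has no sheep target, does not follow this scaling. The 77 such spots had a mean scaled level of -9.53 ± 0.39 in the groin, against -7.90 ± 1.06 on the body side (SD, n = 3), a difference of 1.62 (exact permutation test, two-sided p = 0.1), whereas unscaled they differed by 0.049. Of 13280 tested probes, limma gave 9280 an adjusted p under 0.05 (69.9%), and these are the calls below. On the body side 4918 of them were higher (37.0%) and 4362 lower (32.8%), and among the 650 tested probes with a gene name 70.3% were called. Higher calls were 53.0% of the calls, but 68.7% with normexp background correction, 68.5% with median centring and 1.98% without scaling. Of the 5 tested member probes 4 were called, which is close to the background share, and the remaining probe was not tested.

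AQP1 was lower on the body side by both of its probes. In the groin the processed signal of A_70_P051356 was 198, 232 and 415 in replicates 1 to 3, and on the body side it was 9.10, 11.8 and 16.1. The other probe, A_70_P051357, read 189, 180 and 379 in the groin and 5.69, 11.7 and 4.65 on the body side. Every groin array was far above every body side array for either probe, and the values of the sites did not overlap, as for 75.2% of all tested probes. All 3 groin arrays and no body side array read the AQP1 probes well above background, a pattern shared by 3.08% of tested probes. Such probes entered the test only through the groin, where they are bright, and AQP5 probe A_70_P030151 and the tested CFTR probe entered it the same way.

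Because no body side array read the AQP1 probes well above background, the size of the AQP1 difference is not well measured. Scaled levels of A_70_P051356 were -3.93 ± 0.45 in the groin and -6.83 ± 0.66 on the body side (SD, n = 3), a measured difference of -2.90 ± 0.35 (SE, limma adjusted p = 2.13e-04). Those of A_70_P051357 were -4.12 ± 0.52 and -7.66 ± 0.24, a measured difference of -3.54 ± 0.27 (limma adjusted p = 3.13e-05). A groin level can be set against the lowest signal that counted as well above background on the body side arrays. By the former probe AQP1 was then 4.38-fold higher in the groin, and by the latter 3.84-fold. Each fold sets the groin mean against a body side mean. That mean, -6.06 for AQP1, takes on each array the higher of that lowest signal and the probe's own. These folds are no strict lower bound, because a probe not well above background could read higher than that lowest signal. AQP5 probe A_70_P030151 did so on body side replicate 1, at a scaled level of -4.43. Among the 409 probes with this pattern, 260 had such a fold above 1, with a median of 1.97-fold. Of those folds, 15.8% were above that of A_70_P051356. The body side signals also overlapped the negative controls. On body side replicate 1, 26 of the 77 negative control spots were at or above A_70_P051356 and 75 were at or above A_70_P051357. By the raw spot median these counts were 4 and 11. On body side replicate 2 each AQP1 probe had 1 such spot by processed signal, and on replicate 3 they had 2 and 64. The scanner software marked A_70_P051356 positive and significant on every body side array, and A_70_P051357 on replicate 2 only.

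The measured AQP1 difference varied with the processing. Without any scaling it was -4.48 and -5.11 on the log2 scale for the 2 probes, beside -1.57 for the 75th percentiles. These sizes too rest on body side signals not well above background. With normexp background correction, an alternative that adds an offset of 50 to each signal, the probes differed by -0.54 and -0.53 and the calls ended (limma adjusted p = 0.124 and 0.0972, the highest over all alternatives, with lowest values of 9.34e-06 and 7.73e-06). With that offset the lowest possible scaled value was -6.33 for the groin and -4.77 for the body side, and AQP1 lay at -4.02 and -4.19 on the body side against -3.47 and -3.66 in the groin. With an offset of 1, chosen after seeing the data, the differences were -1.56 and -1.78 and were called.

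**Figure D1:**
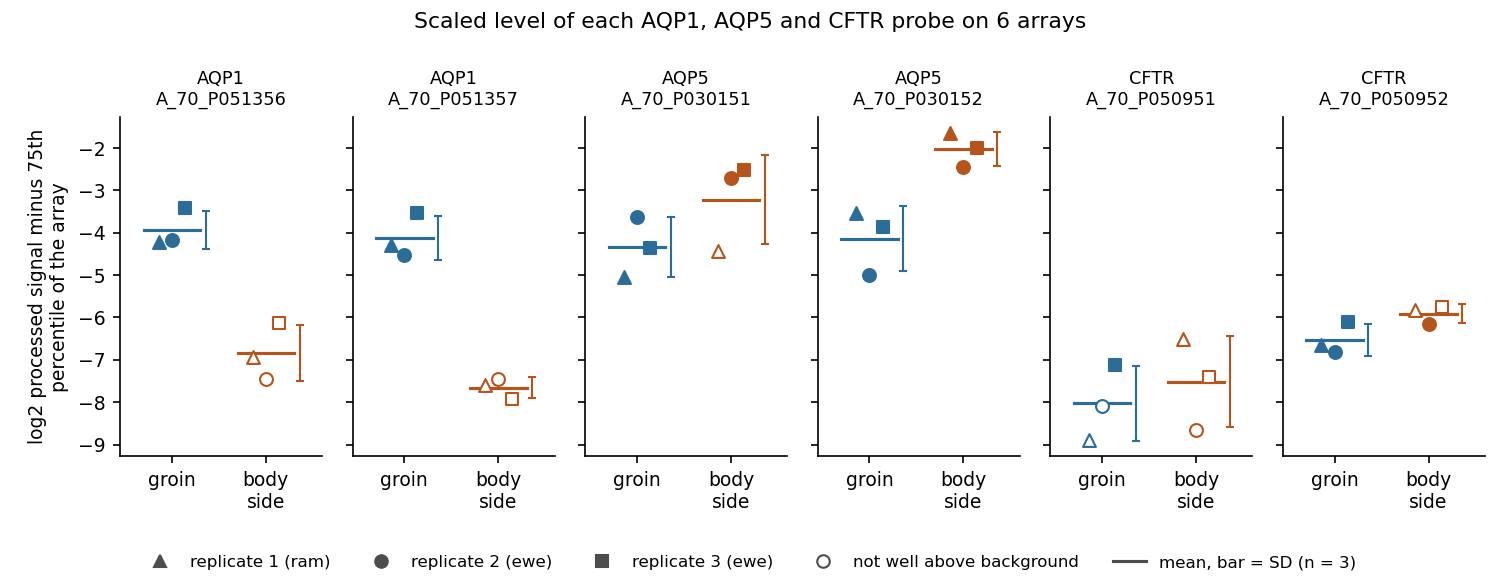
Scaled level (log2, relative to the 75th percentile of each array) of the 6 probes on each array; triangles are the ram, circles and squares the ewes, open symbols are values not well above background, and lines and bars are means and SDs of 3 arrays. Both AQP1 probes lie below their groin values on all body side arrays, AQP5 probe A_70_P030152 lies above its groin values on all of them, and the other probes overlap.

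AQP5 was higher on the body side, firmly by 1 probe only. The processed signal of A_70_P030152 was 316, 130 and 301 in groin replicates 1 to 3 and 353, 377 and 281 on the body side, well above background on all 6 arrays. Unscaled, these values overlap: groin replicates 1 and 3 lie within the body side range and groin replicate 2 lies far below it. Relative to the dimmer body side arrays the scaled levels were -4.14 ± 0.77 for the groin and -2.03 ± 0.40 for the body side (SD, n = 3). The scaled groups did not overlap, and the difference of 2.11 ± 0.38 (SE, limma adjusted p = 1.35e-03) was 4.31-fold. Only 2.21% of tested probes had a larger rise on this scale, a share that does not count larger falls.

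The second AQP5 probe, A_70_P030151, gave the same direction with a wider spread. Its processed signal was 112, 340 and 216 in groin replicates 1 to 3 and 51.0, 314 and 196 on the body side, where replicate 1, the ram, was not well above background. Scaled levels were -4.34 ± 0.71 for the groin and -3.22 ± 1.05 for the body side (SD, n = 3), and the groups overlapped. The difference of 1.11 ± 0.53 (SE) had an interval from -0.11 to 2.34 (95%) and did not pass (limma adjusted p = 0.0919). Over all alternatives the adjusted p lay between 3.54e-04 and 0.521. It passed in 9 of 21 alternatives, among them quantile normalization (1.47), median centring (1.57), cyclic loess (1.42), the deposited values (1.45) and normexp (1.15). It also passed without body side replicate 1, at 1.72 (limma adjusted p = 1.47e-03), without both arrays of the ram, at 1.37 (limma adjusted p = 1.88e-03), and as the mean of both AQP5 probes, at 1.61 ± 0.22 (limma adjusted p = 3.54e-04). Without scaling the probes differed by -0.46 and 0.53, neither of them past the threshold, so the AQP5 rise is a rise relative to the other probes of the array.

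The AQP5 probes disagreed on which animal was high at a site. In the groin the ram was highest by A_70_P030152, at a scaled level of -3.54, and lowest by A_70_P030151, at -5.04. On the body side the ram was again highest by the former, at -1.64, and lowest by the latter, at -4.43. Groin replicate 2, a ewe, was lowest by A_70_P030152, at -5.01, and highest by A_70_P030151, at -3.62. After removing the site means, the 2 probes correlated at -0.78 over the 6 arrays, which share 3 animals and 2 scans, whereas the AQP1 probes correlated at 0.14. The within-site SD of A_70_P030151, 0.90 on the log2 scale, was larger than that of 98.7% of tested probes, and that of A_70_P030152 was 0.61. The median SD of all tested probes was 0.25. Where on the mRNA each probe binds is not given in the sources used here.

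**Figure D2:**
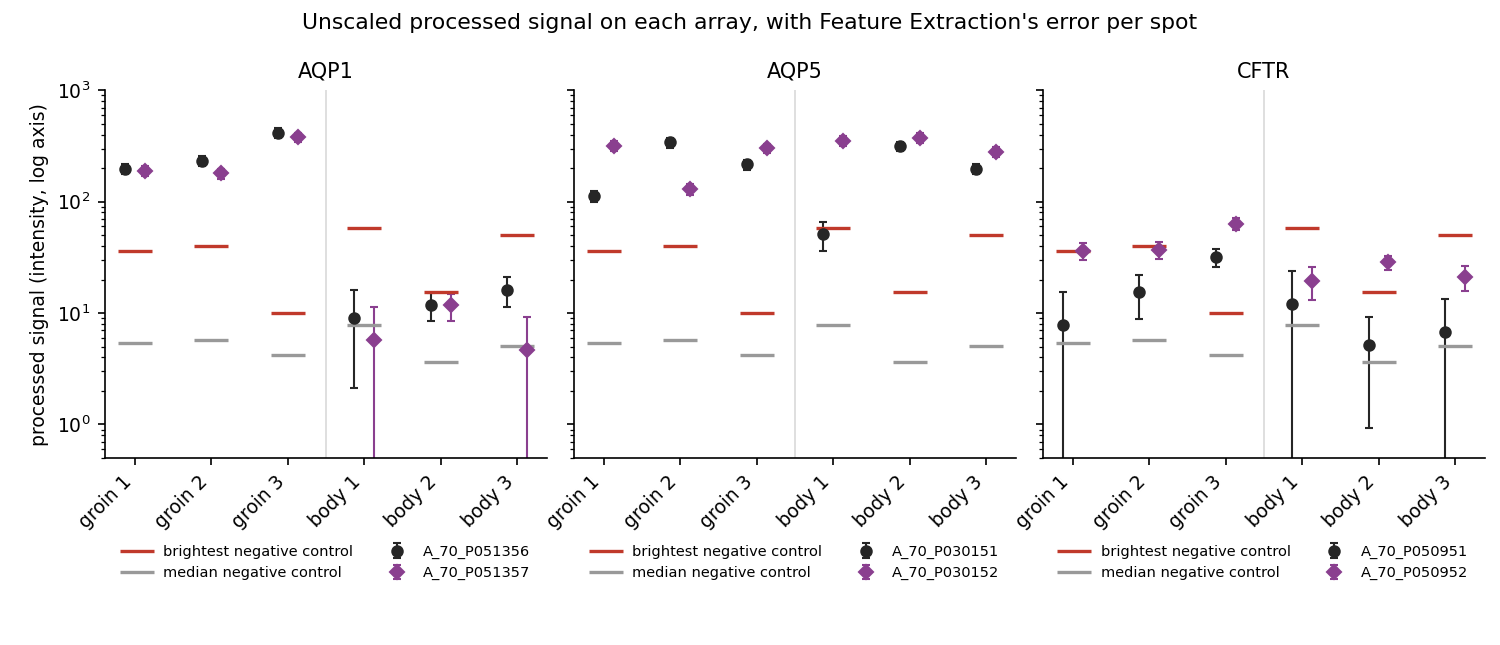
Unscaled processed signal (intensity, log axis) of both probes of each gene on the 6 arrays, with the error that Feature Extraction gives each spot (bars that reach near 0 leave the axis); red and grey marks are the brightest and the median of 77 negative control spots. AQP1 falls from 180 to 415 in the groin to 4.65 to 16.1 on the body side, AQP5 stays between 51.0 and 377, and CFTR lies close to the negative controls.

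CFTR was dim at both sites, and its small scaled rise depended on the processing. The brighter probe, A_70_P050952, had a processed signal of 36.4, 37.0 and 63.4 in groin replicates 1 to 3 and of 19.4, 28.6 and 21.1 on the body side. Unscaled, each body side array was below each groin array, but only body side replicate 2 was well above background there. Scaled levels were -6.53 ± 0.37 for the groin and -5.91 ± 0.22 for the body side (SD, n = 3), with overlapping groups. The scaled difference of 0.62 ± 0.23 (SE, limma adjusted p = 0.0377) was 1.53-fold upward, while the unscaled difference was -0.96 (limma adjusted p = 0.0229), and the adjusted p ran from 7.59e-04 to 0.211 over all alternatives. The scaled rise of CFTR was smaller than that of the negative control spots, 1.62, which carry no sheep target. It was not past the threshold without groin replicate 1 (0.55) or 2 (0.47), without body side replicate 1 (0.58) or 3 (0.53), or without both arrays of number 1 (0.51), 2 (0.60) or 3 (0.74).

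The dimmer CFTR probe, A_70_P050951, was set aside from the test, since it was well above background on groin replicate 3 alone. Its processed signal was 7.77, 15.4 and 31.7 in groin replicates 1 to 3 and 12.1, 5.12 and 6.70 on the body side. On body side replicate 1, 12 of the 77 negative control spots were at or above it. With no filter on dim probes its difference was 0.51 ± 0.62 (SE, limma adjusted p = 0.494). At this brightness a CFTR difference between the sites was not detectable by that probe.

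The site difference of the members could be set between the sexes, since the ram and the ewes were sampled at both sites. AQP1 differed by -2.71 in the ram and -3.001 in the ewes by A_70_P051356, and by -3.31 and -3.65 by A_70_P051357. These AQP1 values compare groin levels with body side signals not well above background, so nothing is read from the gap between the sexes. For AQP5 the values were 1.90 in the ram and 2.21 in the ewes by A_70_P030152, and 0.61 and 1.37 by A_70_P030151. CFTR differed by 0.83 in the ram and 0.51 in the ewes. The largest gap between the sexes, -0.76 ± 0.49 (SE) for A_70_P030151, did not pass (limma interaction term, adjusted p = 0.825), and the adjusted p of the other 4 probes was 1.00 when rounded. Over the array, the interaction called 14 of 13251 probes (0.106%). With 1 ram, the spread in this test comes from the ewes and from the prior that limma takes over all probes.

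Agreement between 2 probes of a gene was mixed across the array too. Of 185 named genes with exactly 2 tested probes, 155 had the same sign of site difference by both, 97 were called the same way by both, 44 were called by 1 probe only and 11 were called in opposite directions. The median gap between the differences of the 2 probes was 0.33 on the log2 scale. AQP1 was called the same way by both and had a gap of 0.64. Those AQP1 calls and that gap rest on body side signals not well above background. AQP5, called by 1 probe only, had a gap of 0.99, which 15.1% of these genes exceeded.

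The site difference of all probes moved with brightness, and the members lie among the dim ones. When the tested probes were ordered by mean scaled level and cut into 10 bins of equal size, CFTR probe A_70_P050952 and AQP1 probe A_70_P051357 fell in bin 1, the dimmest. AQP1 probe A_70_P051356 fell in bin 2, and AQP5 probes A_70_P030151 and A_70_P030152 fell in bins 3 and 4. The median differences of bins 1 to 4 were -0.40, 0.071, -0.11 and -0.26, without an ordered movement. The rise with brightness lay in bins 8 to 10, at 0.25, 0.68 and 1.14, which held no member. Relative to the median of their own bin, the AQP1 probes had measured values of -2.98 and -3.14, which rest on body side signals not well above background. On the same scale the AQP5 probes lay at 1.22 and 2.37 and the CFTR probe at 1.02. Only 1 body side array read the CFTR probe well above background. Its bin also holds probes that entered the test only through the groin, such as A_70_P051357, so its median depends on the filter.

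**Figure D3:**
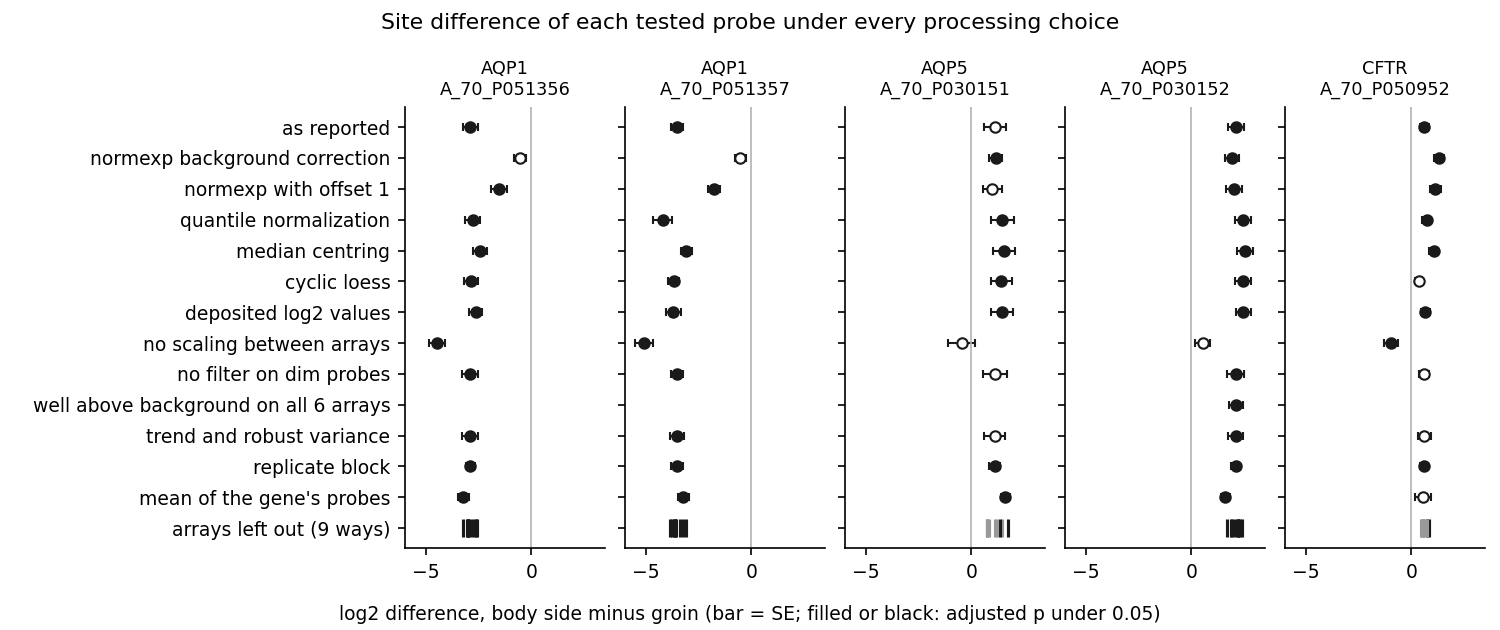
Log2 difference (body side minus groin, bars are SE) of the 5 tested probes under each processing choice; filled points passed an adjusted p of 0.05, and the bottom row shows the 9 ways of leaving out arrays in black (passed) or grey. AQP1 stays below 0 throughout and is not called with normexp, AQP5 probe A_70_P030152 stays above 0 throughout, and AQP5 probe A_70_P030151 and CFTR turn below 0 without scaling.

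Other genes for water, ion transport and its control that carried a named probe were few. AQP4, the water channel best known from astrocytes, was the only further aquaporin among the 14 listed. It rose by 0.82 ± 0.16 (SE, limma adjusted p = 1.93e-03); 1 of its body side arrays was above background, and it was at -0.75 without scaling. In the gene table AQP5 lies between AQP6 and AQP2, and neither of these had a named probe. The aquaporin list thus had 2 genes up and 1 down by the brightest probe of each. All 3 were called, beside 69.9% of all tested probes. Their median difference of 0.82 is the value of AQP4 itself. It stands beside a median of 0.30 over tested probes with a gene name and 0.10 over all tested probes. The rise of AQP4 was smaller than that of the negative control spots, 1.62. Of 38 chloride and bicarbonate transporters, 2 were tested, CFTR and SLC12A4, a cotransporter that carries potassium and chloride out of cells. SLC12A4 fell by 0.74 ± 0.23 (SE, limma adjusted p = 0.0187), and its other probe fell too, by 0.62. The SLC12A4 call ended in 8 of 20 alternatives, with median centring (-0.28), quantile normalization (-0.50) and the deposited values (-0.55), without body side replicate 3 (-0.70), without groin replicate 1 (-0.73) or 3 (-0.66), and without both arrays of number 1 (-0.55) or 3 (-0.62). Among the sodium, potassium and proton transport genes, ATP1B1, a beta subunit of the sodium pump, did not pass (0.41 ± 0.18) and was at -0.79 with quantile normalization. The other ATP1B1 probe had the opposite sign, at -0.31, and did not pass either (limma adjusted p = 0.144).

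Of the 30 listed genes for the control of secretion, 7 were tested, of which 5 rose, 1 fell and 1 did not pass. Over the array, 70.3% of the tested probes with a gene name were called. The median difference of the list was 0.77, beside 0.30 over the tested probes with a gene name. PRKACA, a catalytic subunit of the protein kinase A that opens CFTR, rose by 1.44 ± 0.23 (SE, limma adjusted p = 7.49e-04), and its other probe rose by 1.05. ADCYAP1, a neuropeptide that raises cyclic AMP, rose by 1.39 ± 0.27, and its other probe by 0.79. ADRB3, a beta adrenergic receptor, rose by 0.77 ± 0.26, the peptide hormone OXT by 0.70 ± 0.25 and HSD11B2, which inactivates cortisol, by 0.82 ± 0.30. The ADRB3 call ended with a normexp offset of 1 (0.68), without body side replicate 1 (0.62) or 3 (0.78), without groin replicate 2 (0.51) or 3 (0.83), and without both arrays of number 3 (0.84). Without scaling these 5 were all below 0, from -0.88 for OXT to -0.13 for PRKACA. NR3C1, the glucocorticoid receptor, was not well above background on any body side array. By the comparison used for AQP1, which is no strict bound, its groin level was 1.32-fold higher. Its measured means were -5.66 for the groin and -7.48 for the body side (limma adjusted p = 8.58e-04). Normexp put the NR3C1 difference at 0.48, without a call. PRKAR1A, a regulatory subunit of protein kinase A, did not pass (0.31 ± 0.17) and was at -0.33 with quantile normalization.

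**Figure D4:**
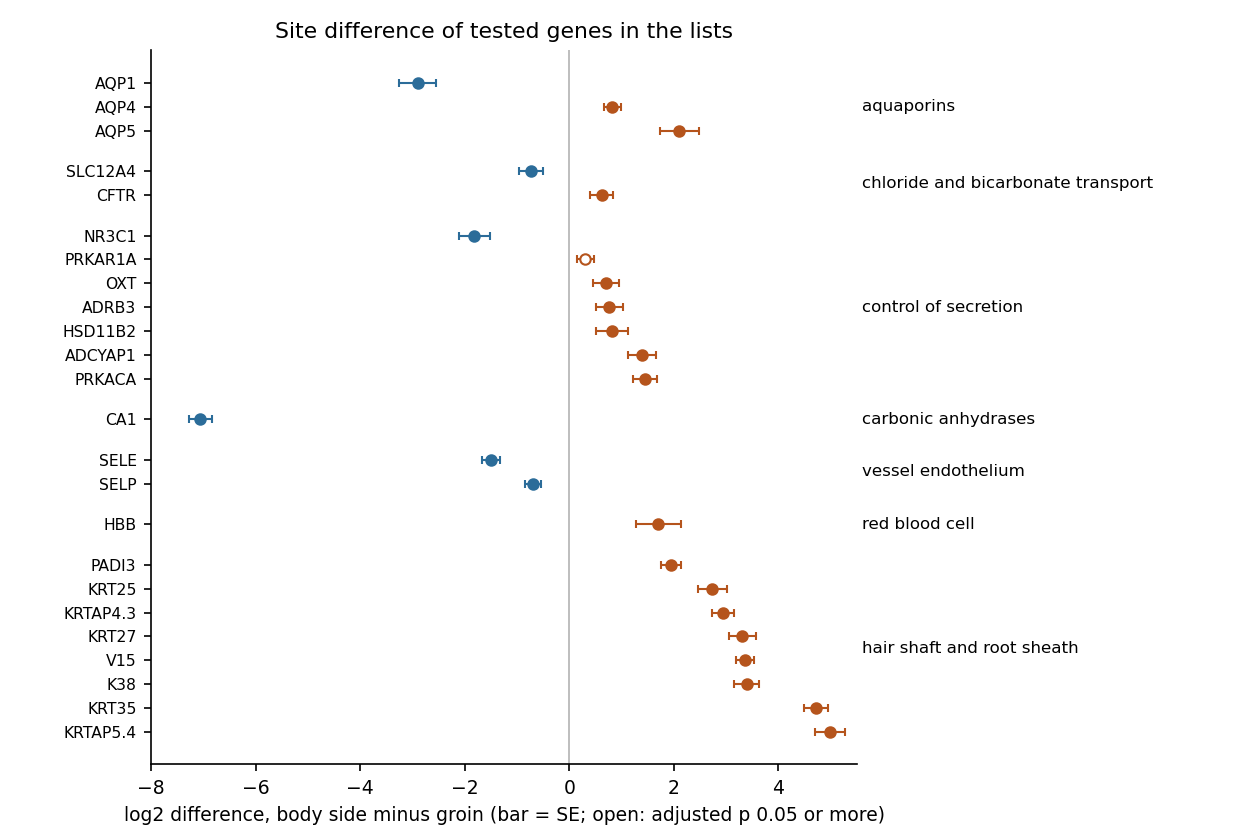
Log2 difference (body side minus groin, bars are SE) of tested genes in the aquaporin, chloride, secretion, carbonic anhydrase, vessel, red cell and hair lists, and AQP5 and CFTR once each, by the brightest probe of each gene; open points did not pass an adjusted p of 0.05. AQP1 and CA1 lie far below 0, AQP5 lies above AQP4 and CFTR, and all 8 hair genes lie above 0. AQP1 and NR3C1 are plotted at measured values although their body side signal was not well above background.

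Markers of the cells that carry these channels moved with the members. In full-thickness skin, fewer cells of a type and less RNA per cell cannot be told apart. Of 16 vessel endothelium markers, 2 had a named probe and both fell with AQP1, beside 32.8% of all tested probes called lower. SELE, an adhesion molecule of activated endothelium, had a difference of -1.495 ± 0.18 (SE, limma adjusted p = 1.81e-04), and SELP, another selectin, fell by 0.69 ± 0.16 (limma adjusted p = 4.35e-03). The sum of their levels, each relative to the 75th percentile of its array on a linear scale, ran from 0.312 to 0.371 in the groin and from 0.145 to 0.168 on the body side, without overlap. The SELP call ended in 6 of 20 alternatives, with normexp (-0.042), its offset of 1 (-0.30), quantile normalization (-0.30), median centring (-0.24), the deposited values (-0.31) and without both arrays of number 3 (-0.71), whereas that of SELE held in all 20. Of 11 red cell markers, 2 were tested and went apart. CA1, the carbonic anhydrase of red cells, was lower on the body side, with a measured difference of -7.06 ± 0.22, only 1 body side array well above background and its other probe at -4.48. HBB, the beta globin, rose by 1.70 ± 0.43 (limma adjusted p = 7.46e-03), but was at 0.13 and not called without scaling. Their summed level was 1.58 to 2.28 in the groin and 0.203 to 0.541 on the body side. CA1 alone made 1.46 to 2.22 of it in the groin and 0.0107 to 0.0150 on the body side. The lower sum thus follows CA1 and does not describe HBB, which rose on the scaled levels. Of the sweat gland markers, only the members AQP5 and CFTR are described here. The part of vessels, blood or glands in the members' differences was not tested.

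Follicle markers were high in the skin labelled as wool-bearing. All 8 tested genes of 18 for the hair shaft and root sheath were higher on the body side, with a median difference of 3.34 and a summed level on that linear scale of 589 to 1020 on the body side against 72.5 to 88.3 in the groin. KRT35, a keratin of the shaft, was 26.4-fold higher there. Other tissues in the skin moved as well: of 3 skeletal muscle genes 2 rose and 1 fell, CNN1 of smooth muscle did not pass (-0.35 ± 0.23), but was called lower with quantile normalization (-1.57), cyclic loess (-1.57), the deposited values (-1.61) and no scaling (-1.93). Of 6 milk protein and mammary genes 1, CSN3, rose by its brightest probe. The other probes of CSN2 and LALBA were called higher too, at 5.22 and 1.19, while the brightest probes of these genes did not pass (0.49 and 0.43).

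Likeness of profile was measured as Pearson's r of scaled levels over the 6 arrays, which share animals and scans, against 438 other named genes. Site means were not removed, so a site difference in the same direction raises r by itself. The 2 AQP1 probes correlated at 0.944 in this way, but at 0.14 after the site means were removed. Their body side levels were also not well above background. The genes most like AQP1 were SELP (0.985), PLAU, CDK5, RPA1 and TRPM7 (0.977) by A_70_P051356, and FHL1 (0.997), PDGFB, CR2 and TPSB2 (0.993) by A_70_P051357. The genes named for the 2 probes do not overlap, and 62 and 91 genes had an r above 0.9. AQP5 by A_70_P030152 was most like MB, the muscle oxygen store myoglobin (0.998), then ADCYAP1, PANK2, SLAMF1 and ADRB3 (0.970), with 100 genes above 0.9. By A_70_P030151 it was most like FTO (0.928), the 1 gene above 0.9, then RPS25, FGF2, CYB561 and GJB2 (0.821). CFTR was most like CPT1A (0.965), BEGAIN, MYOD1, CD40LG and MX1 (0.914), with 7 genes above 0.9.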

How the data were processed

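Total RNA of 6 skin samples was amplified, Cy3-labelled and put on 1 array each, per the labels' protocols. The deposited intensity values are those of Agilent Feature Extraction, version 10.5.1.1 in the submitters' processing notes. Per the file headers they were background-corrected and detrended on each array. The authors also deposited log2 values, whose columns share a median of 8.31 and correlate at 0.999 with quantile-normalized log2 processed signals; the sources used here do not give their background step or centring.

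Titles gave groups and replicate numbers. Number 1 is the ram at both sites, but whether 2 and 3 mark 1 ewe each is not stated. Deviations of same-numbered arrays correlated at 0.160, 0.0887 and -0.0875. The known pair, number 1, lay below body side 2 with groin 3 (0.164), so these values cannot decide the pairing. Because the labels do not pair 2 and 3, the main fit used no pairing, not even that of the ram. The p-values measure the spread between these arrays only, whose number limits the precision.

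Control spots and outlier-flagged spots (6 to 51 per array) were left out, no spot was saturated, and the 5 spots of 50 probes were averaged. A probe was set aside unless all 3 arrays of 1 site or the other read it well above background (1728 probes). limma 3.58.1 in R 4.3.3 (lmFit, eBayes, Benjamini-Hochberg over all tested probes, threshold 0.05) was tested on simulated data.

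RefSeq identifiers named 734 probes through the gene table of assembly ARS-UI_Ramb_v3.0; 14274 had no match. No sequences or coordinates were used here. The members and the 12 gene lists were chosen with earlier results of these data known. The text names every member probe, up to 4 called genes of a list by adjusted p (or else the 1 with the smallest p), by the brightest probe, and the 5 genes most like each member; some genes this rule gave are not reported here. OXT, HSD11B2, PRKAR1A and ATP1B1 were named after their values were seen. Alternatives were background correction, scaling, the deposited values, filters, outlier spots kept, the variance model, a replicate block, the mean of a gene's probes and leaving out arrays.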

Additional observations from a re-analysis of the deposited data

How the results depend on the processing

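The sign of AQP1 and of AQP5 probe A_70_P030152 held under every alternative that gave a value; the calls ended for AQP1 with normexp (-0.54 and -0.53) and for A_70_P030152 without scaling (0.53). The offset of normexp sets a higher floor on the body side, as given above. What ended these calls, that floor or anything else, was not tested. AQP5 probe A_70_P030151 passed with normexp (1.15), quantile normalization (1.47), median centring (1.57), cyclic loess (1.42), the deposited values (1.45) and the mean of both probes (1.61), and turned to -0.46 without scaling; leave-outs gave 0.76 to 1.72. With the replicate number as a block it passed at 1.11 (limma adjusted p = 5.73e-03), and no other member call changed there. CFTR turned to -0.96 without scaling and was not past the threshold with cyclic loess (0.35), no filter on dim probes or a variance trend (0.62 each) or the mean of its probes (0.56); leave-outs gave 0.47 to 0.82. Leave-outs gave -3.25 to -2.60 and -3.85 to -3.11 for the AQP1 probes and 1.67 to 2.41 for A_70_P030152. A filter on all 6 arrays left A_70_P030152 as the only member tested. The median difference of all probes shifted by 0.36 with normexp, 0.46 with median centring, -0.12 with cyclic loess and -1.57 without scaling. The sex difference of A_70_P051357 turned to -0.70 with quantile normalization and -0.46 with the deposited values.

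Without scaling 190 probes were called higher and 9413 lower, and of the 36 listed genes 7 and 19, against 20 and 8 as reported. Lower calls among listed genes numbered 4 with normexp, median centring or a filter on all 6 arrays and 5 with a normexp offset of 1; leave-outs gave 5 to 8. With arrays left out, the calls over all probes ran from 3315 to 5206 higher and from 3250 to 4542 lower. Without scaling AQP4 was at -0.75, PRKACA at -0.13, ADCYAP1 at -0.19, ADRB3 at -0.81, CSN3 at -0.19 and MYL11 at -0.56. NR3C1 was at 0.48 and TNNC2 at 0.33 with normexp, and CNN1 at 0.10 with median centring. Signal over background limits AQP1 on the body side and CFTR at both sites.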
